A study of Gallus gallus with 4 samples.

Results

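The sample described here is the day 0 array of a conditional Arp6 knockout line of DT40, a chicken B cell lymphoma line, chosen by its label as the array of cells in which the knockout had not been induced. It is 1 of the 4 arrays of the series. In this line the Arp6 gene (symbol ACTR6) had been disrupted with histidinol and puromycin resistance cassettes in place of a block of its exons, and Arp6 came from a transgene that tetracycline turns off. The day 0 cells grew without tetracycline, so the transgene was on, and the cells of days 2, 4 and 6 grew for that time in tetracycline at 2 ug/ml. All 4 arrays therefore share the disrupted gene, the transgene and the selection as stable transfectants, and the labels do not say whether the line is 1 clone. The later arrays differ from day 0 in Arp6, tetracycline and time in culture together. There was 1 array per day and no replicate, so no difference below carries a test or a replicate error. Polyadenylated RNA was hybridised to the Affymetrix Chicken Genome Array, and the questions asked of the day 0 array were which genes the line shows strongly, which lineage genes it has or lacks, and how firmly those ranks stand on the other 3 arrays.

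DT40 came from a bursal lymphoma induced by avian leukosis virus and keeps diversifying its immunoglobulin light chain gene by gene conversion, which made it a standard line for vertebrate gene targeting. A B cell of this kind carries an immunoglobulin on its surface, held by the signalling chains CD79A and CD79B, and passes the signal through the kinases LYN, SYK and BTK to adaptors and phospholipase C gamma 2. Arp6 is a nuclear actin-related protein and a subunit of the SRCAP remodeller, which exchanges H2A for H2A.Z in nucleosomes.

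Signals were ranked within the array over 38439 probe sets other than controls, rank 1 being the brightest, and a rank within an array is not affected by how arrays are scaled to each other. A probe set's brightness depends on its probes as well as on the amount of RNA, so ranks order probe sets and not the amounts of different messengers. A gene with several probe sets is given by the one with the highest mean over the 4 arrays, which yields 13009 named genes. How far probe sets of 1 gene disagree shows how much such a rank depends on the probe set, and is not a replicate error. Among 7315 genes with several probe sets, the first and the second by mean signal were compared at day 0. They differed by a median of 1.34 on the log2 scale, and 38.9% of these pairs lay within 2-fold. Dimmer probe sets of a gene do not enter this value. Of 434 such genes whose first probe set was in the day 0 top 1000, 266 had a second one in the top 10% (3843 probe sets) and 41 had a second one below background. Background means the 95th percentile of 42 bacterial control probe sets that no spiked RNA matches, a signal of 28.6 at day 0 and of 26.0, 29.7 and 38.3 at days 2, 4 and 6. Signals are given as deposited, and ratios and folds after scaling the arrays to a common median. Signals covered 0.0949 to 11924 at day 0, with a median of 31.2. The limits of the classes used here passed through continuous values: COPS4 stood at rank 1000 with 1800 and ACSBG2 at rank 1001 with 1792, and NSMCE4A closed the top 10% with 510.4, next to AP4B1 with 510.3.

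The strongest signals of the day 0 cells came from the protein synthesis machinery. Of the 100 highest genes, which reach down to rank 140, 57 encode cytoplasmic ribosomal proteins, 6 are translation factors, 6 are glycolytic enzymes, 5 are chaperones and 3 belong to the actin group. RPS20, of the small ribosomal subunit, was the brightest probe set at day 0, with signals of 11924, 11539, 10798 and 9982 at days 0, 2, 4 and 6. RPL35, of the large subunit, was second at day 0 and first on the other 3 arrays, with 11662, 12110, 11660 and 11528. Next came IGLL1, an immunoglobulin lambda light chain-like gene and the 1 gene of B lineage among the 100, with 11556, 10745, 10167 and 10795. These values lie close together near the top of the array's range: the 100 brightest probe sets spanned 7870 to 11924, so differences in rank among them are small differences in signal.

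IGLL1 shows both agreement and disagreement between probe sets. Of its 8 probe sets 5 ranked 3, 7, 12, 14 and 18 at day 0, and the same 5 lay at rank 27 or better on every later array. The remaining 3 ranked 15180, 27852 and 30547 at day 0. Of the 100 brightest probe sets, 70 carry a suffix (s, x or a) that marks probes matching more than 1 transcript or gene, against 27.2% of all probe sets, 84 have 1 gene symbol, 2 have several and 14 are not listed in the annotation.

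Of the 63 ribosomal protein genes measured, 61 were in the top 1000, where 5.89% of all named genes stood, and the list's median rank was 62. The 2 others were RPL31, at rank 6290, and RPS13, at rank 12217. All 33 chaperones and 32 of 33 translation factors were in the top 10%, which held 20.6% of all named genes. EEF1A1, the elongation factor that brings aminoacyl-tRNA to the ribosome, led the translation factors at rank 26 and EEF2, the translocase, followed at rank 32. EIF4B, the lowest of them, stood at rank 5302. PPIA (cyclophilin A) was the highest chaperone at rank 97, and HSPA8, the constitutive heat shock cognate, stood at rank 114.

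Energy and structural genes followed. Of 19 glycolytic genes 13 were in the top 10%, which held 20.6% of all named genes, led by ENO1 (enolase) at rank 21 and GAPDH at rank 40, while the hexokinase gene HK2, with a signal of 15.1, was below background at day 0. Of 49 respiratory chain genes 41 were in the top 10%, with ATP5G3, of the ATP synthase ring, at rank 130. Of 27 proteasome genes 24 were, led by PSMA7 at rank 149, and the actin, tubulin and motility group had 22 of 28, with ACTB (beta-actin) at rank 101 and TMSB4X (thymosin beta 4, which binds actin monomers) at rank 107. VIM (vimentin) at rank 16799 and LCP1 (plastin of white blood cells) at rank 30830 were the lowest of that group. Splicing and other nuclear RNA-binding genes had 32 of 36 members in the top 10%, led by YBX1 at rank 75.

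Genes of dividing cells were also strong. Of 42 DNA replication genes 28 were in the top 10%, which held 20.6% of all named genes. All 42 were above background, against 68.8% of all named genes. PCNA, the sliding clamp, ranked 169, and RRM2, a ribonucleotide reductase subunit, ranked 367. Of 35 mitosis genes 27 were in the top 10% and all were above background, with CCNB1 (cyclin B) at rank 202 and CDK1, its kinase, at rank 209. The histone variant genes H3F3B and H2AFZ, which encode H3.3 and H2A.Z, ranked 132 and 165, and the second H2A.Z gene H2AZ2 ranked 265. PRIM2 (primase) at rank 13665 and SPC25 (kinetochore) at rank 13181 were among the dimmest of these groups.

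Of the 100 highest genes 18 are in no list. They include SEC61B, of the channel that takes proteins into the endoplasmic reticulum, at rank 35, FTH1 (ferritin heavy chain) at rank 129, the thymosin- and prothymosin-type genes TMSB15B at rank 112 and PTMA at rank 138, and KAT2A, a histone acetyltransferase, at rank 135. ACTR6 itself is among them. Its 2 probe sets ranked 83 and 92 at day 0, above MYC. The first, with the higher mean, gave 8148, 331, 325 and 322 at days 0, 2, 4 and 6, and the second gave 8247, 4.49, 29.1 and 7.06. Both were highest at day 0, and the second was below background at each later day. Where these probe sets lie relative to the replaced exons and the transgene was not examined.

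**Figure D1:**
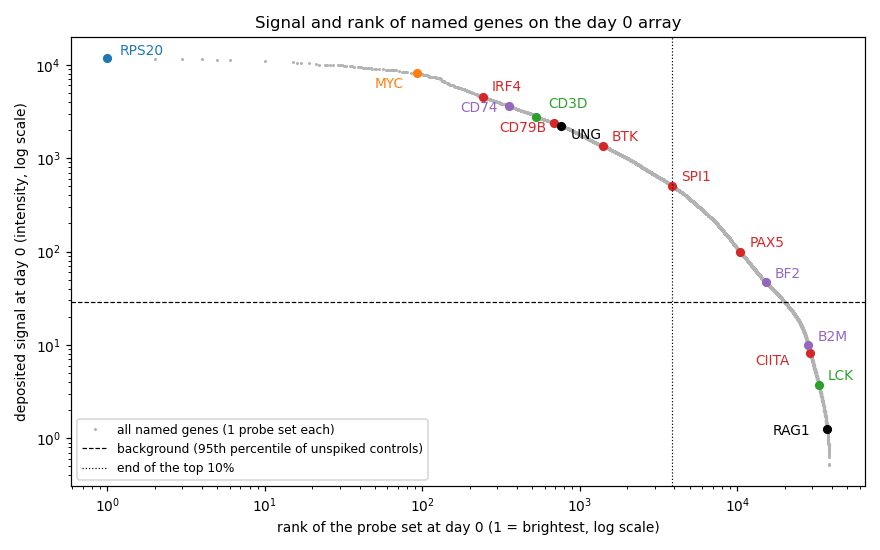
Deposited signal of every named gene at day 0 (vertical, intensity on a log scale) against its rank within the array (horizontal, log scale). Labelled points run from RPS20 at rank 1 through MYC at rank 93, CD74 at rank 357 and B2M at rank 28353 to RAG1 at rank 37354. B2M and RAG1 lie below the dashed background line.

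The markers that define the labelled cell type were bright at day 0. JCHAIN, which joins the subunits of secreted polymeric immunoglobulin, had signals of 4937, 3787, 3811 and 3907 at days 0, 2, 4 and 6. CD74, the chaperone chain that guides MHC class II molecules to endosomes, had 3620, 2011, 646 and 81.0. CD79B, the antigen receptor's signalling chain, had 2387, 1644, 1096 and 311. All 3 were in the day 0 top 1000, and JCHAIN stayed there on every array while CD79B left the top 10% at day 6 with rank 4297. After scaling CD74 and CD79B were brighter at day 0 than on any later array, while JCHAIN had log2 ratios to day 0 of -0.22, -0.13 and 0.13 at days 2, 4 and 6.

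A T cell gene stood beside them. CD3D, a chain of the T cell receptor complex with 1 probe set on the array, had 2772, 2101, 1216 and 767 at days 0, 2, 4 and 6 and so ranked 529, 710, 1285 and 1820, close to CD79B at day 0. The other defining T cell genes were far dimmer at day 0: CD247, the zeta chain of the same complex, ranked 6545, ZAP70 ranked 16443, CD3E 20575, CD4 32540 and LCK, the T cell kinase, 33047. Of 24 T cell and cytotoxic genes 10 were above background (41.7%, against 68.8% of all named genes) and 1, CD3D, was in the top 10%. Since 20.6% of all named genes are in the top 10%, this list lies below that share and the B lineage lists lie above it.

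Of 43 genes in both B lineage lists, 39 were above background at day 0 (90.7%, against 68.8% of all named genes) and 21 were in the top 10% (48.8%, against 20.6%). Their median rank was 3854, against 12338 for all named genes. On the later arrays 18, 15 and 13 of the 43 were in the top 10% at days 2, 4 and 6 (41.9%, 34.9% and 30.2%). Of all named genes 20.6%, 20.4% and 20.1% were. The day 0 array thus held the most of the 43, but the lists and this array were chosen with earlier results known. Among the 38 of these 43 genes bright enough for ratios, 3, 12 and 18 were at least 2-fold lower than day 0 at days 2, 4 and 6. On the same arrays 1, 0 and 4 were at least 2-fold higher. Over all 8026 such genes 3.34%, 5.25% and 8.48% were lower and 2.85%, 6.04% and 8.65% were higher. For bulk RNA, fewer cells of a type and less RNA per cell cannot be told apart.

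B lineage transcription factors divided into bright, middle and dim members. IRF4, a factor of activated B and plasma cells, was the brightest, with 4490, 5119, 5251 and 3620 at days 0, 2, 4 and 6. XBP1, the plasma cell factor of the secretory response, had 2623, 3113, 2773 and 2549, and POU2AF1, the coactivator of octamer factors at immunoglobulin promoters, had 2045, 1426, 1082 and 1319. These 3 of 18 were in the top 1000 at day 0, and IRF4 and XBP1 stayed there on all 4 arrays. A middle group, BCL11A at rank 2244, IRF8 at 2260, IKZF1 (Ikaros) at 2734 and SPI1 (PU.1) at 3854, stood around the lower edge of the top 10% or inside it.

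PAX5 and EBF1, 2 factors of B cell commitment, were not among the bright ones in any of their probe sets. PAX5, which fixes B cell identity, had 98.8, 48.8, 56.4 and 47.8 in its best probe set at days 0, 2, 4 and 6, and its 3 other probe sets had 0.794, 27.9 and 13.3 at day 0. EBF1, an earlier factor of the same path, had 63.8, 51.3, 71.5 and 2.90 in the probe set used. Its second probe set had 28.4, 20.8, 5.90 and 2.61, below background on every array. BCL6, a germinal centre repressor, ranked 5984 at day 0 and PRDM1 (Blimp-1), which drives plasma cell differentiation, ranked 14829. CIITA, the activator of MHC class II genes, had 8.24 at day 0 and was the 1 factor of 18 below background there. Thus PAX5 was above background at day 0 in 1 of 4 probe sets. Whether the probes for PAX5 and EBF1 report their RNA well was not tested.

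The antigen receptor's signalling path was represented from the surface inwards. SH2D6, which RefSeq lists with the synonym BLNK, the adaptor that joins SYK to phospholipase C, had 3060, 2430, 1812 and 1074 at days 0, 2, 4 and 6. SYK ranked 1176 at day 0, BTK 1398, LYN 1417, the exchange factor gene VAV3 1550 and PLCG2 2048. Other probe sets of these genes were dimmer. Those of LYN had 21.2 and 27.2 at day 0, both below background. The second of SYK ranked 3833, those of VAV3 2240 and 5594, and those of PLCG2 between 3497 and 8395. BTK had 1357, 677, 327 and 60.0 at days 0, 2, 4 and 6, and PLCG2 had 981, 883, 697 and 876. BTK was thus highest at day 0 and dimmer on each later array, while PLCG2 kept a rank between 1559 and 2397.

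Surface genes of B cells behaved unevenly. LOC396098, which RefSeq lists with the synonym BU-1, the classical marker of chicken B cells, had 2939, 1823, 978 and 246 in its brightest probe set at days 0, 2, 4 and 6. Its 2 other probe sets had 2467 and 1303 at day 0 and 231 and 132 at day 6, so all 3 order the arrays the same way. PTPRC (CD45, the phosphatase of all white blood cells) had 2330, 2447, 2739 and 2190 and was in the top 1000 throughout. CD72, an inhibitory coreceptor, ranked 2220 at day 0, and TNFRSF13B (TACI), CD40 and CD83 ranked 6434, 9635 and 16427. The SRC-family kinase gene BLK with 6.76 and the ectoenzyme gene CD38 with 14.3 were below background at day 0. The complement receptor gene CR2 had 4.81 in the probe set used, but 70.9 and 6.57 in its 2 others, so 1 of its 3 was above background.

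MHC and antigen presentation genes ranged from bright to below background, with genes of class I and of class II presentation at both ends. CD74 and CALR (calreticulin) were in the day 0 top 1000, PDIA3 (an oxidoreductase of class I loading) ranked 1081 and IFI30, a lysosomal thiol reductase, ranked 1863. These 4 of 15 were in the top 10% (26.7%, against 20.6% of all named genes), and 10 of 15 were above background (66.7%, against 68.8%). The class I light chain gene B2M had 9.86, 5.25 and 2.66 in its 3 probe sets at day 0, all below the background of 28.6. The class II beta chain gene BLB1 had 16.5 in the brightest of its 5 probe sets, with the other 4 dimmer still. TAP1 and TAP2, the peptide transporter, had 20.2 and 23.2, and BF2, a class I heavy chain, had 46.8 in the probe set used and 60.8, 12.4 and 1.46 in its 3 others. The loading gene DMB2, with 13.6, completes the 5 members below background. Whether the array's probes match the alleles of this line was not tested.

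Genes of immunoglobulin diversification and repair gave PCNA at rank 169, the chromosomal protein gene HMGB2 at rank 758, UNG, the uracil glycosylase that acts on deaminated cytosine, at rank 766, the recombination gene XRCC3 at rank 2505 and BRCA1 at rank 2823. UNG had 2235, 1909, 1118 and 787 at days 0, 2, 4 and 6, and its second probe set 488, 533, 527 and 211. Of the 21 genes 5 were in the top 10% at day 0 (23.8%, against 20.6%) and 19 were above background (90.5%, against 68.8%). The 2 below background were RAG1, with 1.27, and RAG2, with 19.96, the recombinase of V(D)J joining. DNTT, the terminal transferase of the same stage, stood just above background with 32.2. The translesion polymerase gene POLH stood at rank 5043 in the probe set used. Its other probe sets had 4.15, 2.09 and 2.18 at day 0, all below background. The homologous recombination genes BRCA2 and RAD54L stood at ranks 4262 and 5310.

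MYC, the oncogene activated in bursal lymphomas, ranked 93, 53, 68 and 29 at days 0, 2, 4 and 6 with signals of 8135, 9144, 8137 and 8883. It was among the 100 brightest probe sets on all 4 arrays. Of 30 genes of MYC, its partners and growth control, 15 were in the top 10% at day 0 (50%, against 20.6% of all named genes) and 27 were above background (90.0%, against 68.8%). NPM1 and NCL, nucleolar proteins, ranked 118 and 156, and the MAX-like partner gene MLX ranked 583.

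Cell cycle inhibitors stood at opposite ends. CDKN2A, the locus of the ARF tumour suppressor, had 4235, 4956, 4586 and 3566 at days 0, 2, 4 and 6. CDKN1A (p21), with 7.35 at day 0, and CDKN2B, with 10.7, were below background there. The D-type cyclin genes CCND1, CCND2 and CCND3 ranked 1798, 1874 and 2344, and their kinase gene CDK6 ranked 1306. Of the survival genes BCL2L1 (BCL-XL) ranked 3009 and BCL2 13019, with BCL2 at 63.4, 123, 98.1 and 247 at days 0, 2, 4 and 6. In this probe set BCL2 was thus dimmest on the day 0 array. Its second probe set had 75.4, 70.7, 105 and 115 and so was dimmest as deposited at day 2. The third had 24.7, 25.8, 77.6 and 72.3, below background at days 0 and 2. After scaling, the log2 ratios of day 2 to day 0 were 0.07 and 0.23 in these other probe sets. TERT, the telomerase reverse transcriptase, stood at rank 17111.

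Of 27 cytokine and chemokine receptor genes 16 were above background at day 0 (59.3%, against 68.8%) and 3 were in the top 10% (11.1%, against 20.6%). IL2RG, the gamma chain shared by several interleukin receptors, was highest at rank 1136 with 1596, 1183, 867 and 353 at days 0, 2, 4 and 6. TGFBR1 ranked 2989 and IFNGR2 3576. The homing receptor genes CXCR4 at rank 5523, CXCR5 at 12468 and CCR7 at 36902 were below the top 10%.

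Marker lists of 9 other lineages, T cells included, hold 174 measured genes. At day 0 72 of them (41.4%) were above background and 3 (1.72%) were in the top 10%, against 68.8% and 20.6% of all named genes, and their median signal was 22.6. The numbers in the top 10% were 3, 3, 3 and 6 at days 0, 2, 4 and 6, and the summed signal of the 174 genes was 14861, 12450, 12593 and 11251 as deposited and 12770, 11971, 12825 and 13370 after scaling. Of these sums CD3D, STMN2 and TF made up 9038, 7762, 6334 and 5022 as deposited. Macrophage and granulocyte genes had 11 of 20 above background and 0 in the top 10%, with CYBB, of the phagocyte oxidase, highest at rank 10965. Erythroid and thrombocyte genes had 7 of 15 above background, led by the haem synthesis gene ALAS1 at rank 5088, and the haemoglobin gene HBA1, with 16.4, was below background. Fibroblast and endothelial genes had 10 of 22 above background with none brighter than PECAM1 at rank 13839. Muscle genes had 8 of 22, epithelial and oviduct genes 6 of 17 and germ and stem cell genes 6 of 13, and none of these was in the top 10%.

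Besides CD3D, STMN2 and TF were the 2 genes of other lineages that reached the top 10% at day 0. STMN2, a tubulin-binding protein known from neurons, had 3944, 3508, 3322 and 2424 at days 0, 2, 4 and 6, and its second probe set had 4363, 2987, 3448 and 2468. Both probe sets stayed in the top 1000 on all 4 arrays. TF, the iron carrier ovotransferrin, had 2322, 2153, 1796 and 1832 in the probe set used, but 105, 75.4 and 4.33 in its 3 others at day 0. The probe sets of TF therefore disagree, and those of STMN2 do not. Among the other genes of neurons, glia and eye MBP followed at rank 5829 and SYT1 was lowest at rank 36445, and among liver genes APOA1 followed at rank 8076.

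**Figure D2:**
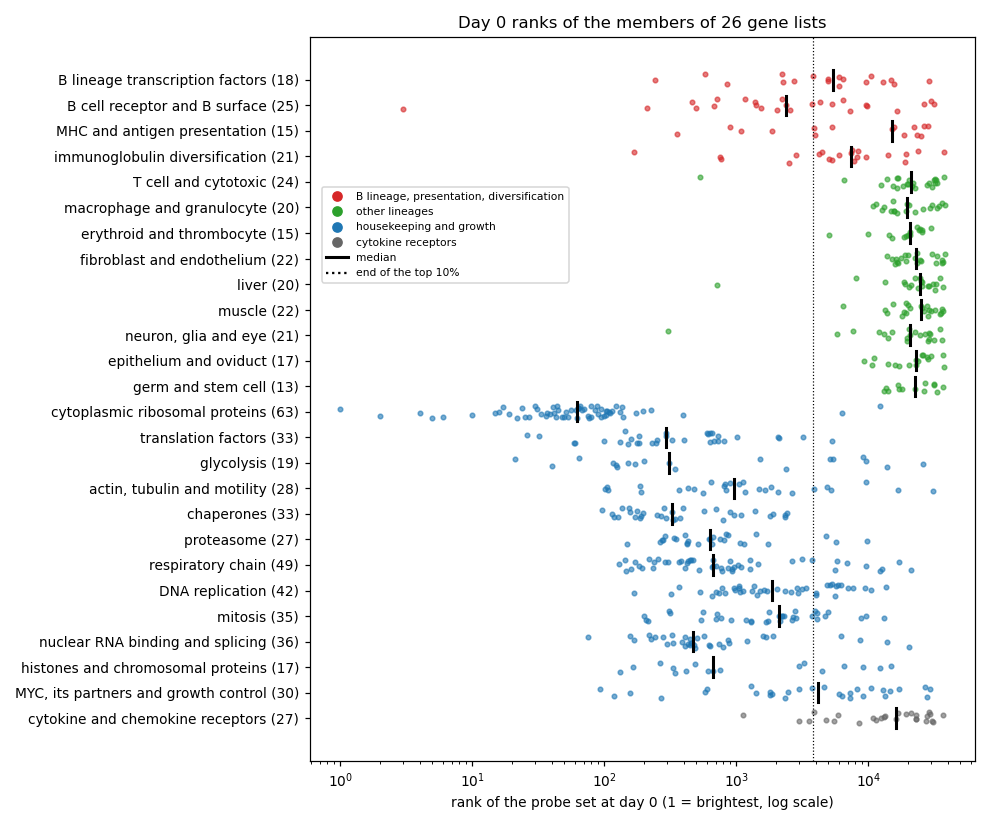
Rank at day 0 (horizontal, log scale, 1 is the brightest) of each measured member of 26 gene lists, 1 point per gene and a bar at the list's median, with the number of genes in brackets. Ribosomal protein genes have their median at rank 62, the 2 B lineage lists at 5468 and 2369, and the lists of other lineages lie right of the dotted line except CD3D, TF and STMN2.

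The day 0 ranks recurred on the later arrays at the bright end. Of the day 0 top 100 probe sets 96, 90 and 92 were in the top 100 at days 2, 4 and 6, and 88 were there on all 3. Of the top 1000, 928, 883 and 855 were, and 824 on all 3. Of the top 10%, 3568, 3458 and 3353 were, and 3224 (83.9%) on all 3. Of the day 0 top 1000 only 8 left the top 10% on any later array, and 1 of them, the second ACTR6 probe set, was below background there. Day 0 shared 928 of its top 1000 with day 2, as many as days 2 and 4 shared with each other, while day 0 and day 6 shared the fewest.

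Rank agreement was weaker among dim probe sets. Across all 38439 probe sets the Spearman correlation with day 0 was 0.83, 0.79 and 0.77 at days 2, 4 and 6, and across the 16658 bright ones (mean signal of 29.1 or more) it was 0.95, 0.91 and 0.88. These are correlations across probe sets that share probes and genes, given as a description. After the arrays were scaled to a common median, all 200 probe sets of day 0 ranks 101 to 300 lay within 2-fold of day 0 at days 2 and 4. In ranks 1001 to 3843, 99.2%, 96.6% and 92.2% lay within 2-fold at days 2, 4 and 6. In ranks 19216 to 38439, 43.6%, 37.2% and 36.7% did, with median absolute log2 ratios of 1.21, 1.40 and 1.42. Ranks of genes this dim, such as RAG1 at rank 37354, therefore carry little order among themselves. In the probe sets used, PAX5 and EBF1 fall in ranks 7687 to 19215 at day 0, where 74.7%, 71.1% and 66.1% lay within 2-fold.

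**Figure D3:**
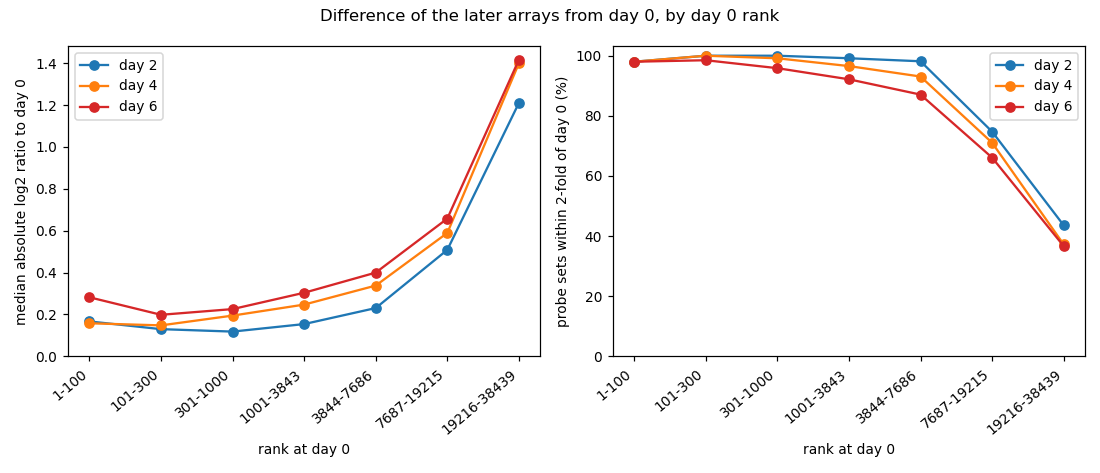
Difference of each later array from day 0 by day 0 rank, as the median absolute log2 ratio after scaling (left) and the percentage of probe sets within 2-fold (right), 1 line per day. The median ratio stays under 0.31 down to rank 3843 and reaches 1.21 to 1.42 in ranks 19216 to 38439.

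Some genes kept nearly the same rank. RPL35 ranked 2, 1, 1 and 1 at days 0, 2, 4 and 6, and RPS27A, a ubiquitin and ribosomal protein fusion, ranked 63, 61, 63 and 63. HSP90AA1, the cytosolic chaperone, ranked 128, 132, 127 and 127, and the histone chaperone gene NAP1L1 ranked 197, 192, 197 and 195. RPS2 ranked 6, 5, 3 and 2. These 5 had the smallest rank ranges among the day 0 top genes, and 2 of them are neither ribosomal nor translational.

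Among the 766 genes of the day 0 top 1000, 1, 4 and 20 were at least 2-fold lower than day 0 at days 2, 4 and 6, and 0, 0 and 3 were at least 2-fold higher. These shares, 0.131%, 0.522% and 2.61% lower, lie below the 3.34%, 5.25% and 8.48% of all bright genes. The shares higher, 0%, 0% and 0.392%, lie below 2.85%, 6.04% and 8.65%. The bright genes begin at a mean signal of 29.1, close to background, where ratios vary more. Genes picked by their day 0 signal lean towards lower on later arrays by that choice. The single gene lower at day 2 was ACTR6. At day 4 it was joined by CD74, LOC396098 and RBM24, an RNA-binding protein known from muscle, and the first 2 of these belong to the presentation and B lineage lists. The 3 that were higher at day 6 were CREB3L2, a membrane-bound transcription factor, and the tRNA synthetase genes GARS and IARS.

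The genes of the day 0 top 1000 with the deepest later rank include CD74, RBM24 and the LOC396098 described above, which ranked 5119 at day 6. Leaving out LOC symbols, the 10 deepest were as follows. CD74 ranked 357, 767, 2591 and 10106 at days 0, 2, 4 and 6, and after scaling was 32.3-fold lower at day 6 than at day 0. Its 2 other probe sets ranked 1037 and 1597 at day 0 and 11531 and 10390 at day 6. RBM24 had 2834, 1505, 1103 and 170, a 12.0-fold lower signal at day 6. CD79B was 5.54-fold lower at day 6, ADA (adenosine deaminase) 3.93-fold and BTLA, an inhibitory receptor of lymphocytes, 3.74-fold. LY96 (MD-2, partner of the endotoxin receptor) had 2372, 1994, 1825 and 627, and so stood near its day 0 rank of 697 until day 4 and at rank 2269 at day 6. PPA2, a mitochondrial pyrophosphatase, DUSP22, a phosphatase, and STX7, an endosomal fusion protein, had day 6 ranks of 2723, 2666 and 2162, against 715, 947 and 534 at day 0. Apart from ACTR6, which stood at rank 4836 at day 2, all 10 genes but that 1 had their deepest rank at day 6.

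**Figure D4:**
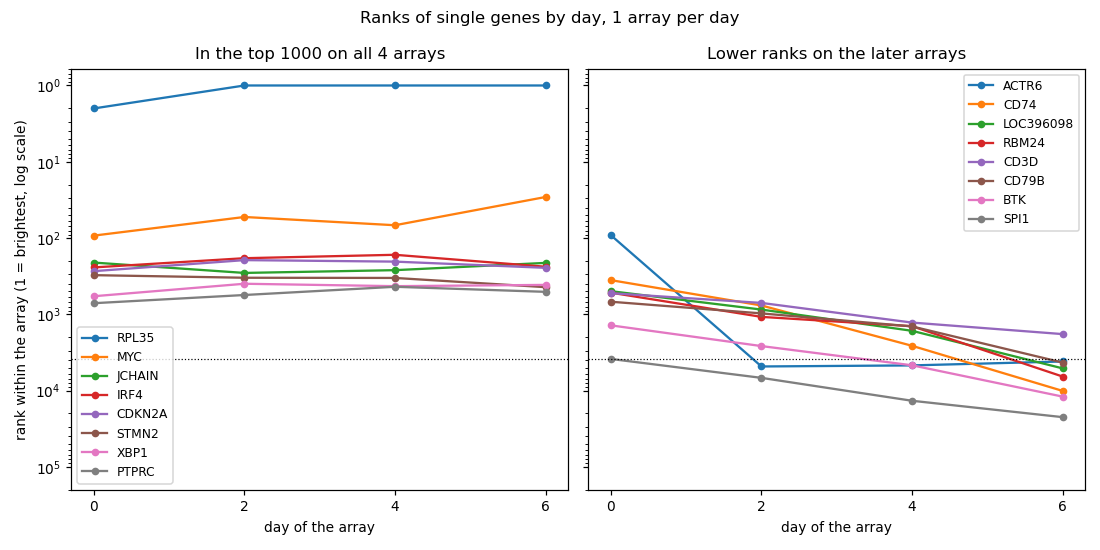
Rank within the array (vertical, log scale, brightest at the top) of 16 genes on the arrays of days 0, 2, 4 and 6, 1 array per day, with the end of the top 10% dotted. The genes on the left stay in the top 1000 and include MYC, JCHAIN and IRF4, and those on the right end at day 6 between rank 1820 (CD3D) and rank 22331 (SPI1).

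In the other direction, genes in the top 1000 of a later array were seldom dim at day 0. Of the 771, 766 and 773 genes in the top 1000 at days 2, 4 and 6, 3, 8 and 27 were at least 2-fold higher than at day 0. In the same sets 0, 0 and 1 were at least 2-fold lower. Genes picked for a high later signal lean towards higher by that choice. Over all bright genes 2.85%, 6.04% and 8.65% were higher. The lowest day 0 rank among the genes of a later top 1000 was that of IDH1, the cytosolic isocitrate dehydrogenase. Its signals were 239, 482, 1235 and 1285 at days 0, 2, 4 and 6. CHAC1, which degrades glutathione, had 563, 1584, 1583 and 4373, and so stood at rank 3522 at day 0. Of the other genes among the 10 lowest at day 0, ALDH18A1 (proline synthesis) ranked 2689, PSPH (serine synthesis) 2590 and SLC7A5 (the large neutral amino acid transporter) 2404. CEBPG, FAM208B, TSPO, FAM177A1 and PRPS2 complete the 10, with day 0 ranks from 2296 to 3146. All but IDH1 were thus in the top 10% at day 0 already.

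The strong genes of day 0 were short. Genes in ranks 1 to 100 had a median span in the RefSeq annotation of assembly GRCg7b of 3.59 kb, those in ranks 101 to 1000 of 8.97 kb and those in ranks 1001 to 3843 of 14.5 kb, against 17.2 kb for all named genes. Ranks 3844 to 7686 had 18.0 kb. The order held within chromosome classes: on chromosomes 1 to 5 the top 10% had a median of 15.4 kb and the other genes 25.3 kb, and on the chromosomes after 10 the top 10% had 8.75 kb and the others 11.9 kb. Ribosomal protein genes make up most of the first class.

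Strong genes lay on every chromosome class. The top 10% held 20.6% of all named genes. By class it held 19.95% of 5754 named genes on chromosomes 1 to 5, with a 95% Wilson interval over genes of 18.9% to 21.0%. On chromosomes 6 to 10 it held 20.8% of 2066 (19.1% to 22.6%) and on the smaller ones 22.4% of 4387 (21.2% to 23.6%). Of 605 genes on Z, 16.4% were in the top 10% (13.6% to 19.5%). These intervals treat genes as independent and, with 1 array, hold no replicate error. The share on Z was 16.4%, 16.2%, 16.9% and 16.5% at days 0, 2, 4 and 6. Among chromosomes with at least 20 named genes, chosen after their values were seen, chromosome 20 had the highest share, 29.2% of 295 genes, and chromosome 16, which carries the chicken MHC, the lowest, 10.0% of 40. Of 17 genes placed on W, 3 were in the top 10% at day 0 (17.6%, against 20.6% of all named genes). HINTW, a W-linked copy of a histidine triad gene, had 9174, 9476, 9203 and 6898 at days 0, 2, 4 and 6, and NEDD4L and HNRNPKL ranked 2408 and 3639 at day 0. HINTW was among the 100 brightest probe sets on all 4 arrays.

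**Figure D5:**
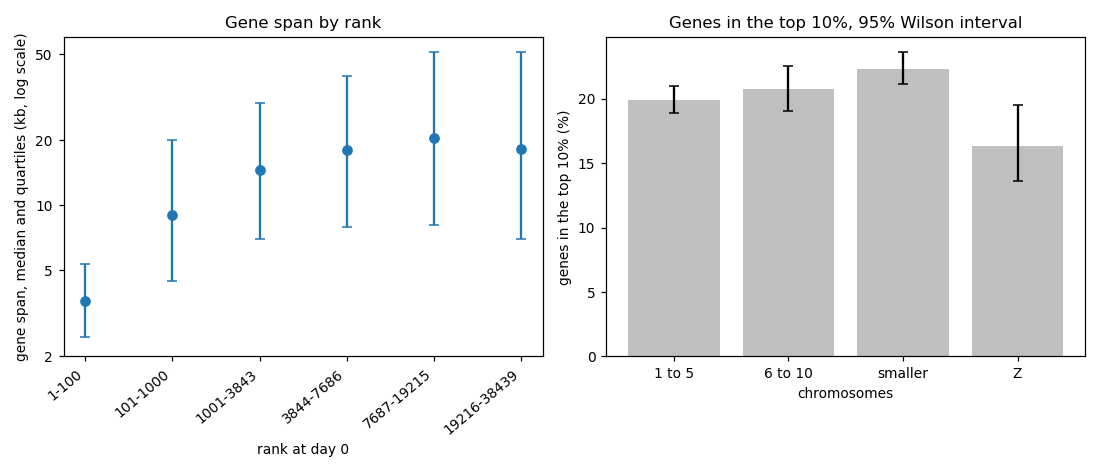
Left, median gene span in kb with quartiles (log scale) by day 0 rank, which runs between 3.59 kb in ranks 1 to 100 and 20.5 kb in ranks 7687 to 19215. Right, percentage of named genes in the day 0 top 10% by chromosome class, with 95% Wilson intervals over genes, between 16.4% on Z and 22.4% on the chromosomes after 10.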

How the data were processed

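Each deposited value is the linear intensity of 1 probe set on 1 array. The authors produced it with GeneChip Operating Software 1.3, per the series' design text. How probes were combined and whether arrays were scaled is not given in the sources used here. Of 38535 probe sets 96 controls were left out. The platform annotation given with the series named 27168 with 1 symbol, 177 with several (not named here) and left 11094 unlisted. Entrez identifiers placed 12850 genes in the RefSeq table of GRCg7b, which gave chromosomes and spans, and list members were matched by symbol or else by RefSeq synonym.

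Ranks use the deposited intensity. Ratios use arrays scaled to the same median over bright probe sets, by 0.859, 0.962, 1.02 and 1.19 at days 0, 2, 4 and 6. The step that counts 2-fold differences was run on simulated data with known changes, planted well above 2-fold and in bright probe sets only. That run checked the code and does not measure the error of the counts given here. LOC and clone-like symbols are left out of the naming rule. Named are the 30 brightest genes at day 0 (examples are given), the 4 markers CD74, CD79B, JCHAIN and CD3D, both ACTR6 probe sets, the 3 highest and 2 lowest of each list (examples are given), members of B lineage lists, members of other lineage lists in the top 10%, the 10 genes of the top 1000 with the lowest later rank, the 10 of a later top 1000 with the lowest day 0 rank, and the 5 with the smallest rank range. Other genes named were chosen after their values were seen. The lists and the sample were chosen with earlier results of these data known. With 1 array per day no test between days was made, and precision is limited by this number of arrays. The tools were numpy 2.4.6, scipy 1.17.1, pandas 2.3.3 and matplotlib 3.10.9 under Python 3.11.15.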

Additional observations from a re-analysis of the deposited data

How the results depend on the processing

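No paired analysis was possible because each day has 1 array, and no array could be left out of a group. The number of ribosomal protein genes among the 100 highest, 57, was 36 with probe sets averaged per gene and 22 without probe sets that match several transcripts. The 72 genes of other lineages above background were 39 with the highest unspiked control as background and 45 with the mean of probe sets. Genes of the day 0 top 1000 counted as lower were 7, 24 and 60 at days 2, 4 and 6 with a 1.5-fold threshold, and 2 and 9 at days 4 and 6 with 3-fold. Without scaling 12 and 66 were lower at days 4 and 6. Genes counted as higher were 10 and 26 at days 4 and 6 with 1.5-fold, and at day 6 there were 0 without scaling, 0 with 3-fold and 0 with the mean of probe sets. The share of top genes with a span below the median of all was 62.0% for the top 10%, 67.0% for the top 5% and 56.3% for the top 20%. Counts that moved by 1.5 times were the 4 lower genes at day 4 (6 with 75th percentile scaling), the 3 higher at day 6 (2 with that and with quantile normalization) and the 3 other-lineage genes in the top 10% (2 with averaged probe sets). All other counts moved less or not at all, those with members matched by symbol alone (an alternative added after seeing the data) included. Day 0 ranks of 75 of 330 named genes moved with the mean of probe sets and of 85 with the median probe set. Planned protein and promoter features were not run, and gene span was used in their place. The causes were not tested.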

Other observations

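Some probe sets outside the named genes also held strong signals at day 0, though the classes described here were mostly dim. The annotation does not name a class of 57 probe sets whose identifiers begin with RPTR. Of these 9 were above background at day 0, against 52.3% of all probe sets, and their median signal was 11.0. A signal of 100 was exceeded by 3 of them, where the 75th percentile of all probe sets was 117. The line carries a transgene and resistance cassettes, and whether these probe sets match them or a gene of the chicken was not examined. The first of the 3 had 4424, 2890, 2127 and 346 at days 0, 2, 4 and 6, the second 1668, 548, 505 and 96.4, and the third 1282, 424, 367 and 49.0. All 3 were highest at day 0 and lower on each later array. The 689 probe sets named after sequence records had a median signal of 7.99 at day 0, and 71 were above background. Among them 2 were above 100 at day 0. The brighter had 1818, 2439, 2002 and 3374 at days 0, 2, 4 and 6. The dimmer had 504, 1013, 730 and 1538, and both were highest at day 6.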
